A study of Mus musculus with 9 samples.

Results

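The comparison described here set penile tissue from rats that received sacral neural crest cells after clamping of the major pelvic ganglia against penile tissue from rats that had sham surgery. It used 6 of the 9 libraries of the series, 3 Sacral NC and 3 Sham, chosen by their labels and tested over all genes of the count table. Sham rats had the operation with the ganglia left unclamped. Sacral NC rats had both major pelvic ganglia clamped, a model of neurogenic erectile dysfunction, and then received the cells, which the series title describes as derived from human pluripotent stem cells. The remaining 3 libraries, Injury, came from rats with clamped ganglia and no cells. All tissue was taken 4 weeks later. No group in the labels had clamping and a mock injection, so the effect of the cells and that of the injection itself cannot be told apart. Sacral NC and Sham rats also differed by the clamping. A difference between these groups alone therefore cannot be assigned to the clamping, the injection or the cells. Strain, age and the number of animals behind a library were not given in the sources used here, and p-values therefore measure only the spread between these libraries, which may be technical.

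The major pelvic ganglion supplies the autonomic nerves of the penis, and its nitrergic fibres release nitric oxide, which relaxes the smooth muscle of the corpus cavernosum through cGMP and so permits erection. Nitric oxide also comes from the endothelium lining the cavernous spaces. Neural crest is the embryonic source of autonomic neurons and of the Schwann cells that wrap nerve fibres. Interferons are antiviral signalling proteins, and the genes they induce encode sensors of foreign RNA, effectors that block replication and a feedback inhibitor of the receptor.

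The organism field of the labels says mouse and the cell type field says pluripotent stem cells, whereas the tissue field says rat penis. All 21124 genes of the table carried rat identifiers and 0 carried mouse identifiers. Smooth muscle, endothelial and fibroblast genes were abundant. Myh11, the smooth muscle myosin heavy chain, had between 7426 and 42895 reads per library. Libraries held between 15442190 and 17191109 counted reads. The counts refer to rat genes, so transcripts of the transplanted cells have no row of their own.

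Libraries Sham 1 and Sacral NC 2 stood apart from the other 4. Skeletal muscle genes took 1.13% of the reads of Sham 1 and 0.291% of those of Sacral NC 2, against 0.00624% to 0.0103% in the other 4. Reads of Acta1, skeletal muscle actin, numbered 34120, 72 and 67 in Sham 1 to 3 and 44, 6961 and 53 in Sacral NC 1 to 3. The first principal component held 46.4% of the variance, with Sham 1 at 43.2 and Sacral NC 2 at 49.0 and the other 4 between -41.0 and -3.6. The muscle share did not differ between groups beyond its spread, at 0.381% ± 0.644 in Sham and 0.102% ± 0.163 in Sacral NC (SD, n = 3 each; exact two-sided permutation test, p = 0.6, where the smallest p possible was 0.1). Sham 1 and Sacral NC 2 are called the muscle-containing pair below, and log2 differences of genes passed by DESeq2 are also given without the pair. The part that muscle in those libraries has in a result was not tested beyond these values.

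Across all genes, the test with edgeR's quasi-likelihood method and Benjamini-Hochberg adjustment passed 0 of 15153 genes (0%). The smallest adjusted p was 0.389, and 1026 genes (6.77%) had an unadjusted p under 0.05, 615 of them higher (4.06%) and 411 lower (2.71%) in Sacral NC. DESeq2, run as an alternative on the same 6 libraries, passed 57 of 17621 genes (0.323%), 42 higher (0.238%) and 15 lower (0.0851%). In the authors' deposited table, 61 of 16998 genes passed (0.359%), 41 higher (0.241%) and 20 lower (0.118%), and 46 of them were among those 57. The 3 Sacral NC libraries did not overlap the 3 Sham libraries for 2062 genes (13.6%), with 1159 higher (7.65%) and 903 lower (5.96%). Every gene below is thus without a call in edgeR, and where DESeq2 passed it that adjusted p is given.

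Genes induced by interferon were mostly higher in Sacral NC than in Sham. Of 21 tested members of the interferon list, 13 had all 3 Sacral NC libraries above all 3 Sham libraries and 0 had the reverse, against 7.65% and 5.96% of all genes. The list's median log2 difference was 0.94, where the median of all tested genes was 0.01. DESeq2 passed 6 members, all higher (0.238% of all genes were passed as higher). Without Sham 1 and Sacral NC 2 the median was 0.83. Between those 2 muscle-containing libraries alone it was 0.58. Some of the genes described next are not on this list and are outside these counts.

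Among the effectors, Mx2, a dynamin-like GTPase that blocks viral replication, had 251, 258 and 260 reads in Sham 1 to 3 and 627, 724 and 962 in Sacral NC 1 to 3. The lowest transplant library thus lay well above the highest sham library. Scaled counts averaged 244 ± 6.6 in Sham and 818 ± 209 in Sacral NC (SD, n = 3 each), a log2 difference of 1.75 ± 0.19 (SE; edgeR adjusted p = 0.389; DESeq2 adjusted p = 2.28e-10). The difference was 1.75 without the muscle-containing libraries. Injury libraries had 543, 234 and 152 reads of Mx2. Oas1a and Oas1f encode 2'-5' oligoadenylate synthetases, which sense double-stranded RNA and switch on an RNA-degrading enzyme. Oas1a had 91, 128 and 128 reads in Sham against 329, 212 and 305 in Sacral NC, a log2 difference of 1.43 ± 0.23 (DESeq2 adjusted p = 0.000111; 1.43 without the pair). Oas1f had 140, 119 and 126 reads in Sham against 288, 312 and 362 in Sacral NC, a log2 difference of 1.48 ± 0.16 (DESeq2 adjusted p = 5.34e-10; 1.53 without the pair). The Oas1 genes are close paralogs, and their reads may be divided unevenly between copies. Ifit3, which binds viral RNA together with its relatives, had 252, 267 and 243 reads in Sham against 535, 334 and 541 in Sacral NC (log2 difference 1.04 ± 0.20; DESeq2 adjusted p = 0.00575). Sacral NC 2 was the lowest transplant library for Ifit3, and the difference was 1.20 without the muscle-containing pair.

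Rig1, which recognises viral RNA in the cytoplasm, had 470, 495 and 512 reads in Sham against 688, 633 and 719 in Sacral NC, a log2 difference of 0.62 ± 0.10 (DESeq2 adjusted p = 0.00141; 0.61 without the pair). Dhx58, a related helicase that tunes that response, had 98, 88 and 99 reads in Sham against 205, 171 and 239 in Sacral NC (log2 difference 1.26 ± 0.18; DESeq2 adjusted p = 4.96e-05; 1.37 without the pair). Neither gene's groups overlapped. Without the pair DESeq2 did not pass Rig1 (adjusted p = 0.0519). Usp18 encodes the feedback inhibitor of the type I interferon receptor. It had 127, 147 and 155 reads in Sham against 316, 354 and 424 in Sacral NC, a log2 difference of 1.51 ± 0.17 (DESeq2 adjusted p = 1.27e-08; 1.42 without the pair). Rtp4, an interferon-induced chaperone of receptors, had 210, 238 and 210 reads in Sham against 599, 409 and 654 in Sacral NC (log2 difference 1.49 ± 0.19; DESeq2 adjusted p = 5.03e-07; 1.61 without the pair). Its annotated interval overlaps Masp1, and the strand setting of the counting was not given in the sources used here.

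Other interferon genes had overlapping groups. Irf1, a transcription factor induced by interferon gamma, had 693, 922 and 760 reads in Sham against 735, 558 and 767 in Sacral NC, with overlapping groups and a log2 difference of -0.05 ± 0.16. The interferon gamma-induced chemokine Cxcl9, an attractant of activated T cells, had 42, 152 and 54 reads in Sham against 23, 16 and 65 in Sacral NC. Its groups overlapped as well. Ifit1 rested on 1 library in each group, with 12, 180 and 9 reads in Sham against 384, 12 and 17 in Sacral NC.

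**Figure D1:**
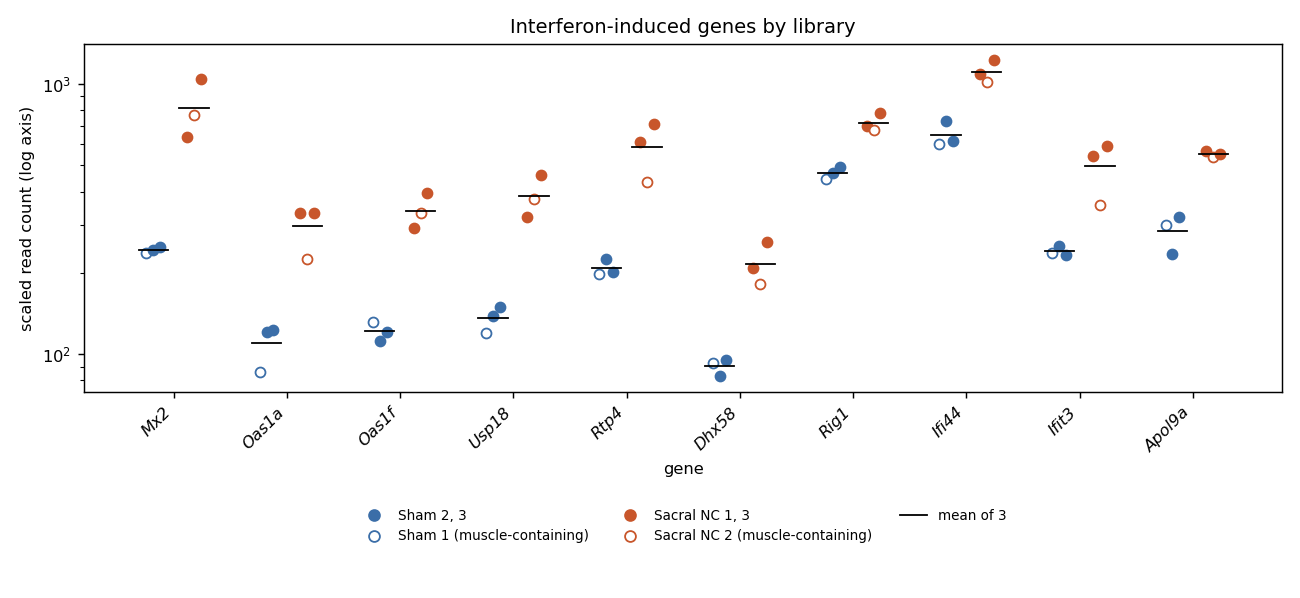
Scaled read counts (log axis) of 10 interferon-induced genes in the 3 Sham (blue) and 3 Sacral NC (orange) libraries, with the mean of 3 as a line and the muscle-containing Sham 1 and Sacral NC 2 as open circles. Only genes whose groups do not overlap are drawn, so the separation of the points follows from the choice of genes. Irf1, Cxcl9 and Ifit1 are not drawn, and 8 of 21 tested members of the interferon list had overlapping groups.

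Receptors of the Fc and Ly49 families had larger differences upward than the interferon genes above. Fcgr3a, an activating receptor for immunoglobulin G on natural killer cells and macrophages, lies on chromosome 13 from 83249872 to 83259921 in the coordinates of the deposited table. It had 39, 54 and 34 reads in Sham against 868, 202 and 1101 in Sacral NC. Sacral NC 2 was the lowest of the transplant libraries and still stood above every sham library. Scaled counts averaged 40.2 ± 9.55 and 765 ± 502, a 19-fold ratio and a log2 difference of 4.25 ± 0.67 (edgeR adjusted p = 0.496; DESeq2 adjusted p = 5.34e-10). Without the muscle-containing libraries the log2 difference was 4.61 ± 0.29. The Injury libraries had 45, 24 and 41 reads of Fcgr3a.

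Ly49 receptors are lectin-like receptors by which rodent natural killer cells read MHC class I molecules. Klra1 had 6, 17 and 20 reads in Sham against 122, 28 and 190 in Sacral NC (log2 difference 3.13 ± 0.80; DESeq2 adjusted p = 0.0113; 3.20 without the pair). Ly49i7, an inhibitory member, had 2, 12 and 2 reads in Sham against 104, 25 and 190 in Sacral NC (log2 difference 4.45 ± 1.01; DESeq2 adjusted p = 0.000808; 4.51 without the pair). In both genes Sacral NC 1 and Sacral NC 3 were far above Sacral NC 2, which itself lay above the sham libraries. Ly49 genes are near-identical copies, so the share of reads that each receives is uncertain.

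In all, 4 of 10 tested members of the natural killer list had groups that did not overlap, all higher (7.65% of all genes were). DESeq2 passed the same number, where it passed 0.238% of all genes as higher. The median log2 difference of the list was 0.82 over 6 libraries, 1.12 in the muscle-poor ones and -0.25 between Sacral NC 2 and Sham 1. It was -0.02 without Sacral NC 3. The defining killing genes were near 0 in both groups. Prf1, perforin, had 3, 2 and 5 reads in Sham against 7, 0 and 18 in Sacral NC. Gzma, granzyme A, had 5, 2 and 1 reads and 0, 0 and 1. Summed over the list, natural killer genes took 17.3 to 23.9 CPM (counts per 1000000 reads of the library) in Sham and 25.2 to 152 CPM in Sacral NC. In bulk tissue, a change in the number of cells of a type and a change in RNA per cell cannot be told apart.

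Myeloid genes were higher in Sacral NC 1 and 3 and lower in Sacral NC 2. The macrophage list had a median log2 difference of 0.80 over 22 tested genes. In the 4 muscle-poor libraries its median difference was 1.07, and between Sacral NC 2 and Sham 1 it was -0.84. Without Sacral NC 3 the median over the other 5 libraries was 0.05. Only 1 member, Itgax, an integrin of dendritic cells and macrophages, had groups that did not overlap. Itgax was higher, as were 7.65% of all genes without overlap. DESeq2 passed 0 members (0.323% of all genes). An unadjusted edgeR p under 0.05 was found for 2, both higher (4.06% of all genes were). Lyz2, lysozyme, had 5792, 5519 and 7976 reads in Sham against 10863, 2657 and 24468 in Sacral NC. Summed macrophage genes ranged from 1399 to 2158 CPM in Sham and from 738 to 4569 CPM in Sacral NC. Mast cell genes split in the same way, with a median of 1.06 in the muscle-poor libraries and -1.13 between the muscle-containing ones. Of 10 tested mast cell genes 0 had groups apart, against 13.6% of all genes. Their median was 0.90 over 6 libraries and 0.14 without Sacral NC 3. The 4 tested red blood cell genes had a median of 1.25, which was -1.21 without Sacral NC 3. Their summed level was 782 CPM in Sacral NC 3, 64.8 and 22.2 CPM in Sacral NC 1 and 2, and 84.8 to 130 CPM in Sham.

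Of the chemokines that organise lymphoid tissue, Cxcl13, which attracts B cells, had 591, 705 and 730 reads in Sham against 2366, 1191 and 4133 in Sacral NC. Scaled counts averaged 642 ± 74.9 and 2724 ± 1640, a log2 difference of 2.08 ± 0.45 (edgeR adjusted p = 0.716; DESeq2 adjusted p = 0.000822; 2.31 without the pair). Ccl21, a product of lymphatic vessels that guides dendritic cells and T cells, had 3229, 3049 and 2683 reads in Sham against 7726, 3583 and 6450 in Sacral NC. Its log2 difference was 1.13 ± 0.27 (DESeq2 adjusted p = 0.03; 1.43 without the pair). Between Sacral NC 2 and Sham 1 the difference of Ccl21 was 0.32, against 1.44 in the muscle-poor libraries. Ccl19, which shares a receptor with Ccl21, was lower, with 38, 38 and 22 reads in Sham against 14, 5 and 18 in Sacral NC (DESeq2 adjusted p = 0.723). In the B cell list 1 of 13 tested members had groups apart, and in the T cell list 0 of 12, where 13.6% of all genes had.

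**Figure D2:**
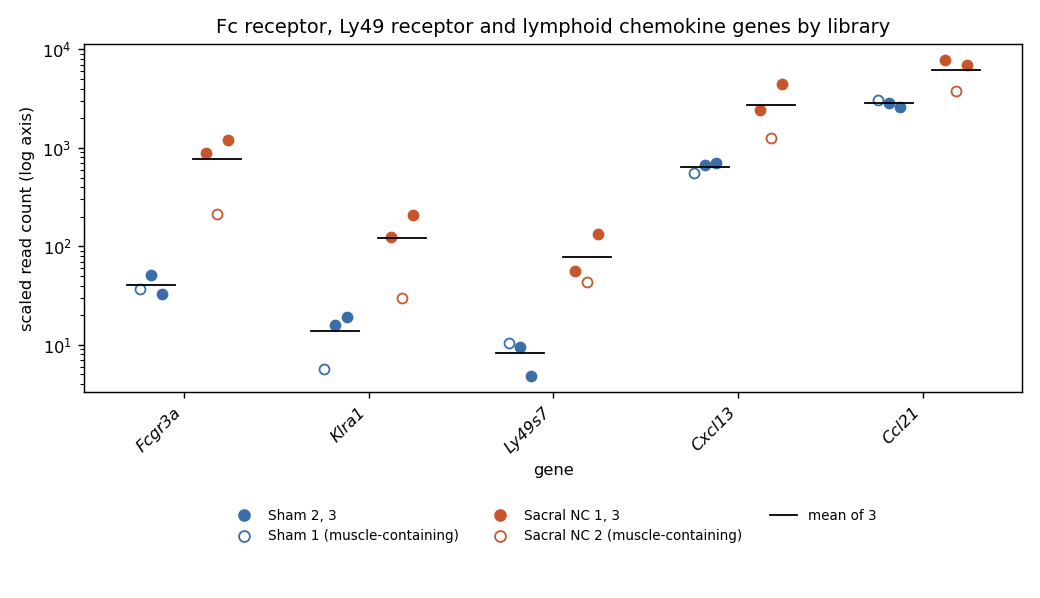
Scaled read counts (log axis) of Fcgr3a, Klra1, Ly49s7, Cxcl13 and Ccl21 by library, marked as in the interferon plot. Only genes whose groups do not overlap are drawn, so the separation of the points follows from the choice of genes. The open Sacral NC 2 point is the lowest of its group in each gene.

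Endothelial genes as a list had a median log2 difference of 0.02 over 21 tested members. Without overlap, 4 were lower and 1 was higher (5.96% and 7.65% of all genes). DESeq2 passed 2, both lower (0.0851% of all genes were passed as lower). An unadjusted edgeR p under 0.05 was found for 3, all lower (2.71% of all genes were). Nos3, the endothelial nitric oxide synthase, had 976, 1501 and 1206 reads in Sham against 711, 549 and 422 in Sacral NC. All transplant libraries lay below all sham libraries. Scaled counts averaged 1166 ± 247 and 589 ± 131, a log2 difference of -0.99 ± 0.22 (edgeR adjusted p = 0.716; DESeq2 adjusted p = 0.0402). It was -1.14 without the muscle-containing libraries. Injury libraries had 396, 430 and 445 reads of Nos3. Plvap, a component of the diaphragms of fenestrated vessels, had 2288, 2427 and 2194 reads in Sham against 1393, 1597 and 1268 in Sacral NC (log2 difference -0.55 ± 0.11; DESeq2 adjusted p = 0.0241; -0.67 without the pair). The general endothelial marker Pecam1 had 5684, 5648 and 5543 reads in Sham against 5750, 3628 and 4799 in Sacral NC, and its groups overlapped.

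E-selectin and P-selectin, which slow leukocytes on activated vessels, were both lower. Sele had 569, 638 and 687 reads in Sham against 329, 299 and 349 in Sacral NC (log2 difference -0.80 ± 0.12; DESeq2 adjusted p = 0.000403; -0.84 without the pair). Selp had 496, 351 and 407 reads in Sham against 207, 183 and 175 in Sacral NC. Its scaled counts averaged 397 ± 68.9 and 199 ± 10.4 (SD; DESeq2 adjusted p = 0.000403; log2 difference -0.87 without the pair). The other adhesion molecules of the list, Icam1 and Vcam1, had overlapping groups. Nfkbia, the inhibitor that NF-kappa-B induces as its own brake, was higher, with 2282, 2479 and 2398 reads in Sham against 3621, 2809 and 3375 in Sacral NC (log2 difference 0.60 ± 0.11; DESeq2 adjusted p = 0.00459; 0.64 without the pair).

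Most of the erectile pathway had overlapping groups. Of 22 tested nitric oxide and cGMP genes, 1 (the phosphodiesterase Pde1a) was higher and 2 (Nos3 and the phosphodiesterase Pde9a) were lower without overlap, shares near the 7.65% and 5.96% of all genes. The median log2 difference was 0.03, and -0.10 without the pair. Nos1, the neuronal synthase of nitrergic nerves, had 117, 140 and 127 reads in Sham against 267, 50 and 72 in Sacral NC, so that Sacral NC 1 was the highest of the 6 and the other two transplant libraries the lowest. Pde5a, the phosphodiesterase that sildenafil inhibits, was highest in the muscle-containing libraries of both groups, with 735, 348 and 339 reads in Sham against 245, 888 and 322 in Sacral NC. The smooth muscle list had a median of 0.04 over all 6 libraries, -0.36 in the muscle-poor ones and 0.19 between Sacral NC 2 and Sham 1. Of its 19 members 0 were apart, against 13.6% of all genes. Acta2, smooth muscle actin, had 36280, 17924 and 16541 reads in Sham against 8281, 36199 and 12462 in Sacral NC.

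Collagen genes took 4.12% ± 0.377 of reads in Sham against 3.7% ± 1.53 in Sacral NC (SD, n = 3 each), a difference within the spread (exact two-sided permutation test, p = 0.7; smallest possible 0.1). The difference was -0.424 percentage points over 6 libraries and -0.979 without the pair (exact permutation p = 0.333, the smallest possible with 2 libraries a group). The transplant libraries lay at 2.15%, 5.2% and 3.74%. The 3 Injury libraries lay at 15.1%, 17.3% and 18.6%. In the collagen list 1 of 19 members was apart and lower, as were 5.96% of all genes. This was Col5a3, a minor fibrillar chain, with 1444, 1146 and 1150 reads in Sham against 524, 840 and 584 in Sacral NC (log2 difference -0.78 ± 0.21; DESeq2 adjusted p = 0.199; -0.93 without the pair).

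Of 16 tested epithelial host defence genes, 13 had a log2 difference below 0. The list's median was -0.72 over 6 libraries and -1.22 without the muscle-containing libraries. Its summed level was 384, 1830 and 660 CPM in Sham 1 to 3 and 662, 301 and 188 CPM in Sacral NC 1 to 3. Sacral NC 1 thus lay within the range of the sham libraries, and Sham 2 was the highest of all. The groups did not overlap for 4 members, all lower (5.96% of all genes were), and DESeq2 passed 3 (0.0851% of all genes were passed as lower). Keratin and squamous epithelium genes also varied by library, with summed levels of 1231, 3014 and 2264 CPM in Sham and 2988, 1367 and 856 CPM in Sacral NC. Their median log2 difference was -0.11 over 6 libraries and -0.5 in the muscle-poor ones. The part of epithelial content in the host defence values was not tested. Tmprss4, a membrane serine protease of epithelia, had 173, 1161 and 349 reads in Sham against 64, 83 and 22 in Sacral NC (log2 difference -3.16 ± 0.83; DESeq2 adjusted p = 0.00431; -4.01 without the pair). Sham 2 held most of the reads. Lcn2, a lipocalin that withholds iron from bacteria, had 350, 185 and 274 reads in Sham against 93, 50 and 51 in Sacral NC (log2 difference -1.92 ± 0.34; DESeq2 adjusted p = 0.000176; -1.56 without the pair). Neutrophil genes were sparse, and of 6 tested members 3 were lower without overlap, Lcn2 among them, and 1, the protease Mmp9, was higher (5.96% and 7.65% of all genes). S100a8, a calcium-binding protein abundant in neutrophils, had 99, 16 and 62 reads in Sham against 3, 0 and 11 in Sacral NC.

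The Schwann cell and myelin list had a median log2 difference of -0.31 over all 6 libraries, -0.21 in the muscle-poor ones and -0.53 between Sacral NC 2 and Sham 1. Of 21 tested Schwann cell and myelin genes, 5 were lower without overlap and 0 were higher (5.96% and 7.65% of all genes). A log2 difference below 0 was found for 18 of them, against 47.5% of all genes, and above 0 for 3. DESeq2 passed 0, and 4 had an unadjusted edgeR p under 0.05, all lower (2.71% of all genes were). Summed over the list, these genes took 3775 to 5203 CPM in Sham and 2471 to 3353 CPM in Sacral NC. The Schwann cell marker S100b had 5388, 4106 and 3565 reads in Sham against 3990, 6309 and 5178 in Sacral NC, with overlapping groups. Nerve fibre and transmitter genes had 0 higher and 1 lower without overlap among 14 tested.

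Dividing-cell genes were lower in the muscle-poor libraries, where their median difference was -0.68, and level between the muscle-containing ones. Over all 6 libraries 24 of 26 tested members lay below 0, against 47.5% of all genes, and 3 had groups apart, all lower (5.96% of all genes). Prc1, which bundles microtubules at the end of mitosis and is not on that list, had 199, 173 and 158 reads in Sham against 73, 100 and 75 in Sacral NC (log2 difference -0.94 ± 0.20; DESeq2 adjusted p = 0.0272; -1.04 without the pair). Without the pair DESeq2 did not pass Prc1 (adjusted p = 0.0622).

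Further genes lower in Sacral NC than in Sham belonged to none of the lists. Aqp4, a water channel, had 215, 479 and 110 reads in Sham against 35, 30 and 16 in Sacral NC (log2 difference -3.16 ± 0.61; DESeq2 adjusted p = 7.35e-05; -3.40 without the pair). The Injury libraries had 61, 333 and 29 reads of Aqp4 and so spanned both groups. Sptbn5, a large beta spectrin of the membrane skeleton, had 569, 511 and 455 reads in Sham against 191, 226 and 227 in Sacral NC (log2 difference -1.10 ± 0.14; DESeq2 adjusted p = 1.43e-06; -1.08 without the pair). Its interval overlaps Pla2g4b. Rem1, a small GTPase of the RGK family, which restrains calcium channels, had 410, 333 and 357 reads in Sham against 198, 187 and 176 in Sacral NC (log2 difference -0.82 ± 0.12; DESeq2 adjusted p = 0.000403; -0.76 without the pair). Without the muscle-containing libraries DESeq2 did not pass Rem1 (adjusted p = 0.0696). Exoc3l2 had 294, 299 and 293 reads in Sham against 126, 145 and 94 in Sacral NC (log2 difference -1.13 ± 0.17; DESeq2 adjusted p = 0.000111; -1.31 without the pair).

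The MHC class I presentation list had a median log2 difference of 0.15 over 10 tested members, 3 of them below 0. Groups were apart for 1, which was higher (7.65% of all genes were). DESeq2 passed 0 (0.323% of all genes). An unadjusted edgeR p under 0.05 was found for 1, higher (4.06% of all genes were). RT1-T24-3, a class I gene not on that list, was higher, with 674, 637 and 591 reads in Sham against 1291, 853 and 1216 in Sacral NC (log2 difference 0.97 ± 0.16; DESeq2 adjusted p = 0.000792; 1.15 without the pair). The RT1 genes are close copies, and reads may be divided between them. Angptl4, a secreted inhibitor of lipoprotein lipase, had 317, 351 and 345 reads in Sham against 869, 366 and 696 in Sacral NC, where Sacral NC 2 lay close to the sham libraries. DESeq2 did not pass Angptl4 on 6 libraries (adjusted p = 0.156) and passed it without the muscle-containing ones (adjusted p = 1.14e-06).

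**Figure D3:**
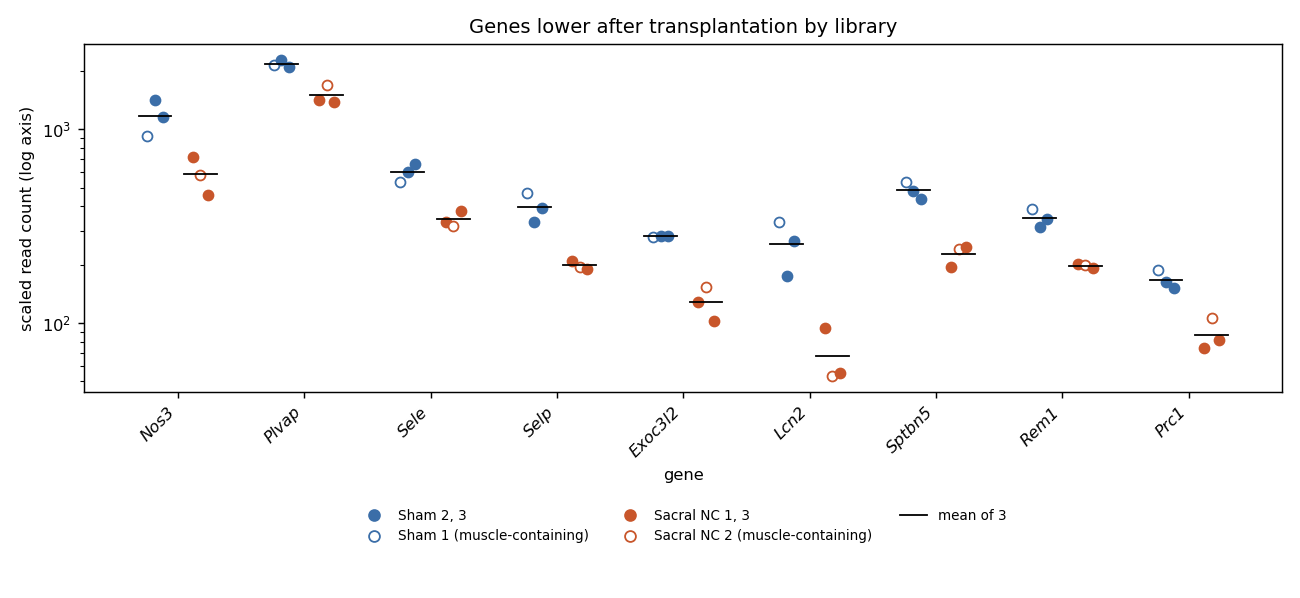
Scaled read counts (log axis) by library of 9 genes that were lower in Sacral NC than in Sham, marked as in the interferon plot. Only genes whose groups do not overlap are drawn, so the separation of the points follows from the choice of genes.

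Genes of the stress response were higher in part. Of 22 tested immediate early genes, 5 were higher and 1 was lower without overlap (7.65% and 5.96% of all genes), with a median log2 difference of 0.38. Klf2, a transcription factor that endothelium induces under flow, had 934, 1052 and 1318 reads in Sham against 2147, 1431 and 2209 in Sacral NC (log2 difference 0.96 ± 0.21; DESeq2 adjusted p = 0.0305; 1.00 without the pair). Fos, an early response factor, had 1435, 354 and 1835 reads in Sham against 2075, 3633 and 3339 in Sacral NC, and DESeq2 did not pass it (adjusted p = 0.435). The list of genes induced by glucocorticoids and FOXO factors had a median of 0.15, and -0.05 between Sacral NC 2 and Sham 1. Of 20 tested members, 4 were higher and 0 lower without overlap, and 6 lay below 0. DESeq2 passed 1 member (0.238% of all genes were passed as higher), so Ddit4 and Depp1 are not both on that list. Ddit4, an inhibitor of mTOR signalling induced by glucocorticoids and low oxygen, had 1334, 1886 and 1314 reads in Sham against 2776, 2493 and 2536 in Sacral NC (log2 difference 0.94 ± 0.15; DESeq2 adjusted p = 0.000403; 0.86 without the pair). Depp1, a target of FOXO factors, had 198, 255 and 253 reads in Sham against 590, 454 and 682 in Sacral NC (log2 difference 1.44 ± 0.19; DESeq2 adjusted p = 1.32e-06; 1.45 without the pair). Its interval overlaps Rassf4.

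Without Sham 1 and Sacral NC 2, with 2 libraries a group, edgeR again passed 0 genes (of 15218, 0%), and 2416 (15.9%) had an unadjusted p under 0.05, 1270 higher (8.35%) and 1146 lower (7.53%). DESeq2 passed 419 of 13857 genes (3.02%), 300 higher (2.16%) and 119 lower (0.859%). All 57 genes that DESeq2 passed on 6 libraries kept their sign, as they also did within the muscle-containing pair. For the 56 of them whose groups do not overlap, the choice of genes fixes that agreement. DESeq2 still passed 48 of the 57, and 44 had a larger absolute log2 difference than before. The 57 were chosen on data that include the libraries kept, here and in the fits described next. Such counts are therefore no independent support. When 1 library at a time was left out, 21 genes were passed whichever it was, among them Mx2, Oas1a, Oas1f, Usp18, Rtp4, Dhx58, Fcgr3a, Cxcl13, Ddit4, Depp1, Sele, Selp and Lcn2. Over all tested genes, the difference within the muscle-containing pair and that within the muscle-poor libraries had the same sign for 7454 of 15153 (49.2%).

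**Figure D4:**
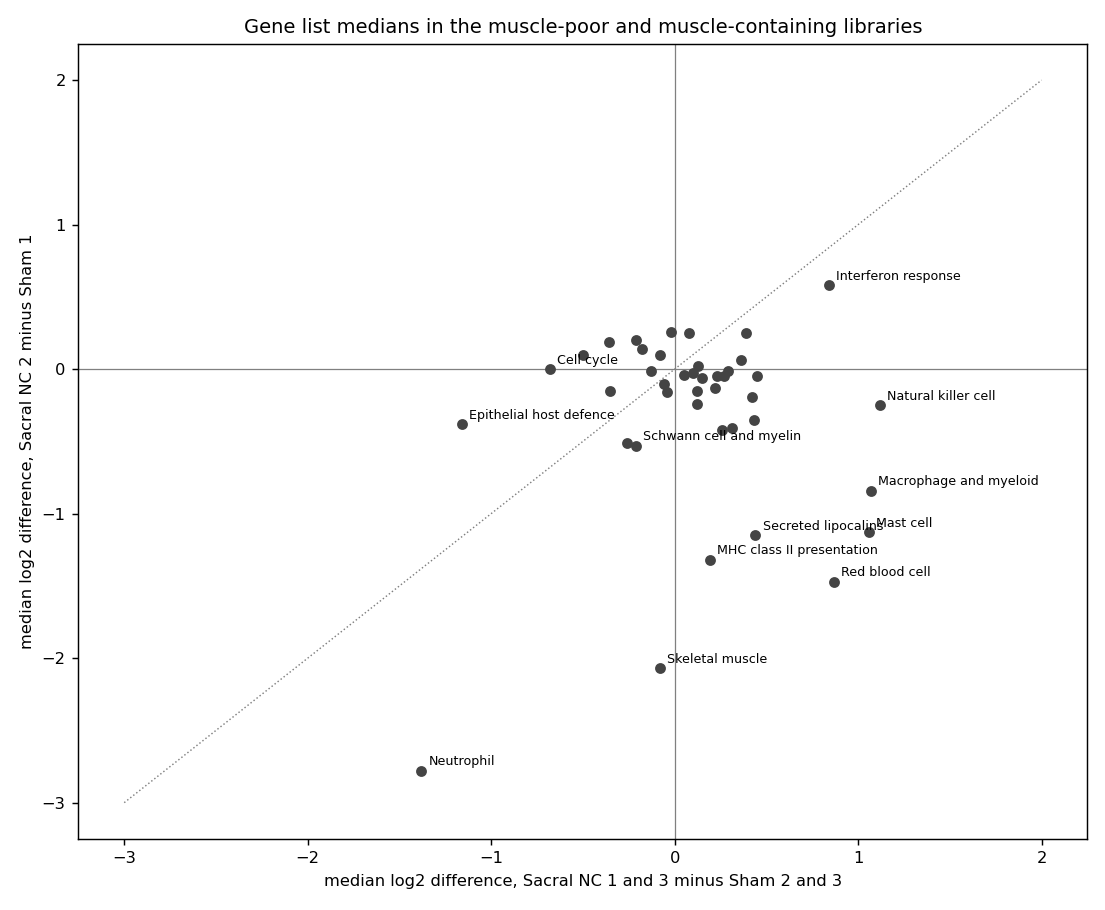
Median log2 difference of each of 41 gene lists in the muscle-poor libraries (horizontal axis) and between Sacral NC 2 and Sham 1 (vertical axis), 1 point per list, with the dotted line at equal values. The interferon list is above 0 on both axes (0.84 and 0.58), and the macrophage, mast cell and red blood cell lists are above 0 on the horizontal axis only.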

How the data were processed

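Gene counts in 3 deposited tables were made by the authors with HISAT2 2.0.5 as aligner, per the submitters' processing notes, which name a mouse build; a rat build was not given in the sources used here. Counts are whole numbers of reads per gene, as deposited, and agreed between the tables. The deposited tables also hold normalized signal, log2 fold changes, scores and p-values computed by the authors. Of these, only the adjusted p-values and the sign of the log2 fold changes were used, to count the authors' calls. Totals were 15442190 to 17191109 reads per library.

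The 3 Sacral NC and 3 Sham columns were tested with edgeR 4.0.16 (R 4.3.3), using TMM scaling, filterByExpr, a robust quasi-likelihood F-test with 4 residual degrees of freedom and Benjamini-Hochberg adjustment at 0.05. DESeq2 1.42.0, other scalings and filters, a replicate block, all 9 libraries, a muscle covariate and omitted libraries were alternatives. The script was tested on simulated data. Scaled counts are TMM-scaled. Shares of reads were compared by exact permutation. Joining and summaries used Python 3.11.15 with pandas 2.3.3.

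The groups, the 41 gene lists and the rule for named genes were chosen with earlier results of these data known. The rule took protein-coding genes with a mean of at least 50 scaled counts and groups that did not overlap. Of these it named 12 a side by smallest p, and 6 more a side by smallest p without Sham 1 and Sacral NC 2. It also named up to 4 members of each list by smallest p and 21 fixed genes, both without those limits. Acta1, Cxcl9, Fos, Gzma, Icam1, Ifit1, Irf1, Ly49s7, Lyz2, Mmp9, Pecam1, Prf1 and Vcam1 were named after their values were seen. Some genes that the rule names are not reported here. No sequences are shown because no rat reference was used here. Samples sharing a replicate number had correlations of deviations of -0.543, -0.352 and 0.212, so the numbers were not treated as pairs.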

Additional observations from a re-analysis of the deposited data

How the results depend on the processing

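With edgeR the count of passing genes was 0 under every alternative fitted with edgeR, while DESeq2 gave 57 on the same 6 libraries; the cause was not tested. The smallest edgeR adjusted p among them was 0.0568, without Sacral NC 2. The DESeq2 count was 419 without Sham 1 and Sacral NC 2, 61 with all 9 libraries and 24 with the replicate block; leaving out 1 library at a time gave 27 (without Sham 3) to 1371 (without Sacral NC 2). The replicate block gave 0 genes in edgeR, and the same-number correlations do not pair the samples. The muscle share difference ranged from -0.465 to 0.0928 percentage points and was above 0 only without Sham 1. The collagen share difference ranged from -1.18 (without Sacral NC 2) to 0.351 (without Sacral NC 1). With 1 library left out at a time, the log2 difference crossed 0 in 9 named genes. It ranged from -7.72 to 5.25 for Acta1, from -1.02 to 0.30 for Acta2, from -1.10 to 0.45 for Myh11, from -2.01 to 3.78 for Ifit1 and from -0.16 to 0.07 for Irf1. The range was -0.88 to 0.53 for Nos1, -0.58 to 0.66 for Pde5a, -0.23 to 0.05 for Pecam1 and -0.14 to 0.09 for Vcam1. Other reversals were 0.24 for Acta1 and -0.05 for Nos1 with the muscle covariate, -0.22 for Nos1 with the replicate block, and -0.15 for Pde5a and 0.03 for Pecam1 without the muscle-containing pair. Vcam1 was at -0.00 with RLE scaling, the block, the covariate and all 9 libraries. Without Sacral NC 3 the list medians of natural killer, macrophage, mast cell and red blood cell genes were -0.02, 0.05, 0.14 and -1.21. With 3 libraries a group, precision is set by the spread between libraries.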

Other observations

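Genes of cholesterol synthesis were examined after their values had been seen, so their counts are a description and support nothing. Of 22 tested members, 21 had a log2 difference below 0, against 47.5% of all genes, and 11 were lower in all 3 Sacral NC libraries than in all 3 Sham libraries, against 5.96% of all genes. The median log2 difference was -0.37 over 6 libraries, -0.46 without Sham 1 and Sacral NC 2, and -0.32 between those 2 libraries. DESeq2 passed 0 members, and 10 had an unadjusted edgeR p under 0.05, all lower (2.71% of all genes were). Summed over the list, these genes took 782 to 867 CPM in Sham and 560 to 634 CPM in Sacral NC.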
